A study of Mus musculus with 63 samples.

Results

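Of the 8 heart libraries from AJ mice, an inbred founder strain of the Diversity Outbred population, 5 held Igkc transcript at 10 CPM (counts scaled to a common library size) or more and 3 held less. Igkc encodes the constant region of the kappa immunoglobulin light chain, the form of light chain that most mouse antibodies carry. The libraries were chosen by their Igkc level alone. The 2 sets are called the high Igkc side (AJ_1, AJ_3, AJ_4, AJ_5 and AJ_6) and the low Igkc side (AJ_2, AJ_7 and AJ_8), and they were made from the measured values, so they are not groups of the study. Igkc stood at 21.3 CPM in AJ_1, 39.1 in AJ_3, 17.0 in AJ_4, 34.6 in AJ_5 and 57.9 in AJ_6, against 0.918 CPM in AJ_2, 1.85 in AJ_7 and 0.503 in AJ_8. The library just inside the limit was AJ_4 and the one just outside it was AJ_7, and no library lay between them. Igkc chose the sides and was left out of every test.

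The series holds 63 heart libraries from 8 founder strains, labelled AJ, NOD, PWK, NZO, B6, 129, WSB and Cast. Every mouse was kept on chow rich in fat (45%) and sugar, so both sides of the AJ split share strain, diet and tissue. The labels used here give neither age nor sex, and nothing beyond the identifiers says that libraries come from separate animals, so p-values measure the spread between these libraries. The labelled tissue matched its defining genes: Myh6, the main cardiac myosin heavy chain of the adult mouse, ran from 28800 to 35200 CPM on the high side and from 30900 to 33300 CPM on the low side.

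Total counts were 34.0 ± 5.28 M on the high side and 31.5 ± 2.68 M on the low side (SD, n = 5 and 3; exact two-sided permutation test, p = 0.607). The share of counts from mitochondrially encoded genes was 21.3 ± 0.972% against 23.5 ± 0.219%, and the TMM scaling factor was 1.05 ± 0.0147 against 0.989 ± 0.0122. Both had p = 0.0179 by the exact permutation test, the smallest that 56 arrangements allow. Xist, the RNA that coats an inactive X chromosome, divided the libraries in another way: it was at 364, 424 and 336 CPM in AJ_1, AJ_3 and AJ_4 and at 1.23 CPM in AJ_5 and AJ_6, against 351 CPM in AJ_2 and 0.848 and 0.862 CPM in AJ_7 and AJ_8. Several libraries stood apart in other genes. AJ_1 held airway genes (Cyp2f2 at 29.2 CPM and Muc5b at 10.2 CPM, with no other AJ library above 0.447 and 0.112 CPM), AJ_7 held Gpnmb at 80.4 CPM with 2.71 CPM as the next highest, and AJ_2 was low in the atrial gene Myl7 (93.6 CPM, with 196 to 286 CPM in the other 7). The part of these differences in the results that follow was not tested. For genes named below, other than immunoglobulin genes, the edgeR value without a library is given where leaving it out changes the call.

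Antibody genes are transcribed in B cells and, at very high levels, in plasma cells, which assemble heavy chains such as the product of Ighm with kappa or lambda light chains. B cells also occur in the fat around the heart and in the lining of body cavities, where clusters of lymphocytes sit among adipocytes, and stromal Cxcl13 draws B cells into such clusters through the receptor Cxcr5. White adipocytes are marked by secreted proteins such as adiponectin (Adipoq) and adipsin (Cfd). In bulk tissue, fewer cells of a type and less RNA per cell cannot be told apart.

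The sequences directly upstream of an adipocyte gene and of a lymphoid chemokine gene that both split the AJ libraries are shown with 2 promoter motifs in capitals, from RefSeq on GRCm38.p6, plus strand. The Adipoq window is chr16:23146286-23146535 and the Cxcl13 window is chr5:95956689-95956938, each the 250 bases before the RefSeq gene start.
Adipoq: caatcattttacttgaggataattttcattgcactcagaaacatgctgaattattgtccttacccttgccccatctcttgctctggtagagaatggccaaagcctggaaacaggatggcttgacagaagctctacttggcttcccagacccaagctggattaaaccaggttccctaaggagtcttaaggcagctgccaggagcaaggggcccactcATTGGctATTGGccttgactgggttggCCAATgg
Cxcl13: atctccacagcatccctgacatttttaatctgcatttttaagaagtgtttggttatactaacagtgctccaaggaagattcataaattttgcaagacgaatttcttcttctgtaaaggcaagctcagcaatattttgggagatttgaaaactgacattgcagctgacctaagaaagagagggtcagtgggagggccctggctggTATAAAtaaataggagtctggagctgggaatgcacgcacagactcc
Capitals mark CCAAT or its reverse complement ATTGG, and TATAAA or its reverse complement TTTATA, searched on both strands with no overlap between the motifs. Adipoq held 3 CCAAT matches and 0 TATAAA matches, while Cxcl13 held 0 and 1. Among 32841 windows of the same length, 33.9% held CCAAT and 12.4% held TATAAA. A match describes the letters of the window only.

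Across all genes the sides differed in few calls. Of 15278 genes tested with edgeR's quasi-likelihood test, 1 was higher on the high side at a Benjamini-Hochberg adjusted p of 0.05 (0.00655% of genes tested) and 0 were lower (0%). At an unadjusted p of 0.05 there were 1103 genes, 669 of them higher and 434 lower. Of the same 15278 genes, DESeq2's test called 125 higher and 22 lower, and limma on the deposited log2 values called 0 in either direction. The count also moved with single libraries, to 21 higher without AJ_4, 14 without AJ_3, 11 without AJ_1 and 0 without AJ_2 or without AJ_7. The median log2 fold change, high over low, was 0.001, a centre that TMM scaling sets. Genes with every high library above every low library numbered 500 (3.27% of genes tested), and 373 lay below in the same sense (2.44%). These shares are the background for each list of genes that follows. The lists and their members were chosen with earlier results known and are described by counts and medians without a test of their own.

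The called gene was Adrb3, which encodes the beta-3 adrenergic receptor of adipocytes (chromosome 8, 27225776 to 27229588, minus strand, GRCm38). It was at 1.39, 2.46, 0.984, 1.01 and 1.34 CPM in AJ_1, AJ_3, AJ_4, AJ_5 and AJ_6, against 0.122, 0.182 and 0.180 CPM in AJ_2, AJ_7 and AJ_8. Every high library lay above every low one, and AJ_3 was the highest. The log2 fold change was 3.13 ± 0.42 (SE; edgeR adjusted p = 0.0433). The adjusted p was 0.217 without AJ_2, 0.0563 without AJ_6, 0.225 without AJ_7 and 0.138 without AJ_8, 0.0671 by limma on the deposited log2 values and 1 in a fit of all 63 libraries, so the call was lost in each of these.

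**Figure D1:**
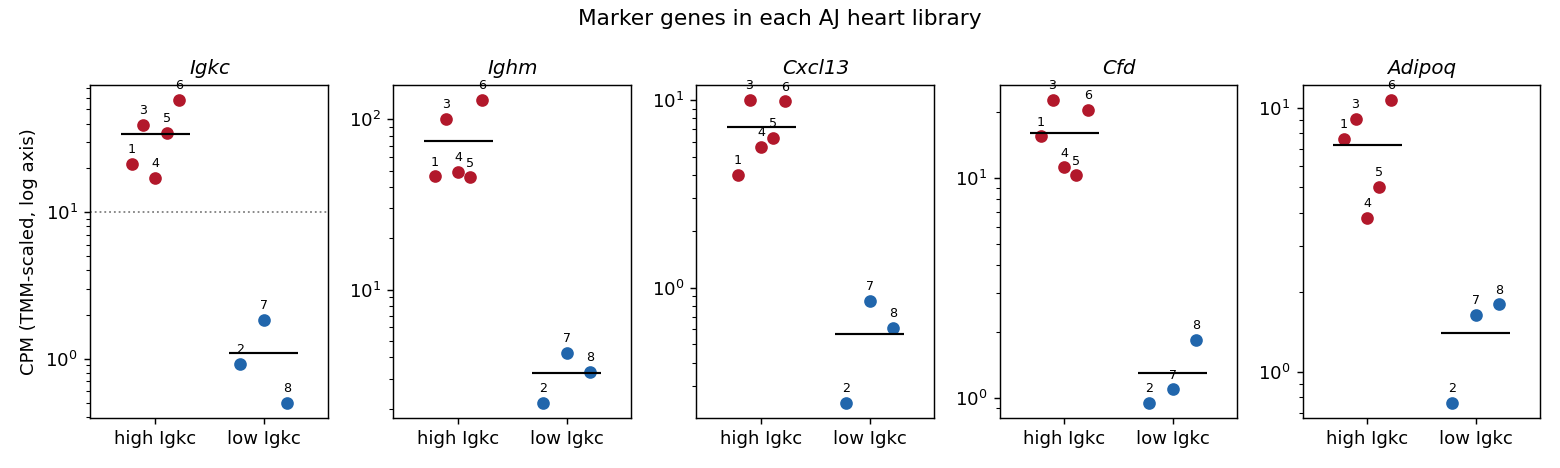
CPM on a log axis of Igkc, Ighm, Cxcl13, Cfd and Adipoq in each AJ heart library, high Igkc side left in red and low Igkc side right in blue, with the library number beside each point and a line at the mean of each side. The dotted line is the 10 CPM limit that made the sides, and in all 5 panels every high library lies above every low one.

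Immunoglobulin genes went with Igkc, which describes the choice, and they are given without p-values. Only Igkc was left out of the fits, so these genes remain in the counts over all genes. Ighm, the heavy chain of IgM (chromosome 12, 113418558 to 113422730, minus strand), was at 46.3, 101, 48.9, 45.6 and 130 CPM in AJ_1, AJ_3, AJ_4, AJ_5 and AJ_6, against 2.17, 4.27 and 3.30 CPM in AJ_2, AJ_7 and AJ_8. The lowest high library was thus far above the highest low one, and the log2 difference was 4.51. Igha, the heavy chain of IgA, was at 3.88 to 11.4 CPM on the high side and 0.503 to 1.82 CPM on the low side. Iglc1, a lambda light chain constant gene, was at 0.338 to 1.40 CPM on the high side and had no count in any low library, which makes the high side at least 24.7-fold higher against a floor of 3 counts over the low side. Of 12 immunoglobulin genes in the table, 11 passed the filter on low counts, 10 of them had every high library above every low one, and the median log2 fold change was 4.03. Some lambda constant genes resemble each other, as do some variable segments, so reads may be divided uncertainly among such genes.

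Genes of the B cell surface and its signalling complex had higher means on the high side. Ms4a1, which encodes CD20, was at 2.29, 6.35, 2.15, 2.09 and 3.57 CPM in AJ_1, AJ_3, AJ_4, AJ_5 and AJ_6, against 0.337, 0.333 and 0.287 CPM in AJ_2, AJ_7 and AJ_8. The sides did not overlap, and the log2 fold change of 3.34 ± 0.49 (SE) missed the threshold (edgeR adjusted p = 0.0766), but passed it without AJ_3 (adjusted p = 0.00194) and without AJ_4 (0.0424). Cd79a and Cd79b encode the signal chains of the B cell receptor. Cd79a ran from 1.75 to 6.07 CPM against 0.323 to 0.551 CPM, and Cd79b ran from 0.984 to 3.55 CPM against 0.0303 to 0.395 CPM. The co-receptor genes Cr2, which encodes complement receptor 2 (0.861 to 3.95 CPM against 0.151 to 0.251 CPM), and Cd22 (0.922 to 5.73 CPM against 0.214 to 0.251 CPM) were split without overlap. So were the transcription factors Pax5, which holds B cell identity (1.04 to 3.98 CPM against 0.180 to 0.367 CPM), and Spib (0.922 to 3.42 CPM against 0.0918 to 0.287 CPM). Without AJ_3, edgeR also called Cd79a and Cd22 (adjusted p = 0.0184 for each) and Spib (0.04), and without AJ_4 it called Spib (0.0184). Cd37, another gene of the B cell list, missed edgeR's threshold in all 8 libraries (adjusted p = 0.0673). It passed without AJ_1 (0.0387), AJ_3 (0.04) or AJ_4 (0.0184).

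Of the 20 B cell genes listed, 19 were in the table and 18 were tested. All 18 had a log2 fold change at or above 0, 13 had no overlap, the median was 3.02, and none passed edgeR's threshold. DESeq2's test called 14 of the 18 higher, beside 125 of 15278 over all genes. The members with no split were Blk, Cd72, Fcrla, Ebf1 and Cd74. Ebf1, a factor that stromal cells and adipocytes express as well, was at 15.1 to 17.9 CPM on the high side and 16.7 to 17.5 CPM on the low side. All 13 split members were highest in AJ_3, whereas 7 of the 10 split immunoglobulin genes were highest in AJ_6. Ighd, the heavy chain gene of IgD, is in both lists and counts among the 13, the 10 and the 14 of DESeq2's test. Like the other immunoglobulin genes, it describes the choice by Igkc. In AJ_6 Ighm stood at 130 CPM beside Ms4a1 at 3.57 CPM, and in AJ_3 at 101 CPM beside Ms4a1 at 6.35 CPM.

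Plasma cell genes divided among themselves. Jchain, whose product joins IgM and IgA into polymers, was at 9.38, 20.1, 11.2, 16.1 and 36.2 CPM in AJ_1, AJ_3, AJ_4, AJ_5 and AJ_6, against 0.643, 1.54 and 0.431 CPM in AJ_2, AJ_7 and AJ_8. It did not overlap (log2 fold change 4.37 ± 0.74 SE, edgeR adjusted p = 0.179). Mzb1, a chaperone of antibody secretion, was at 0.903 to 1.62 CPM against 0.108 to 0.515 CPM, and Irf4, a factor of plasma cell formation, was at 1.05 to 2.21 CPM against 0.398 to 0.787 CPM. Xbp1 and Sdc1, a secretory factor and the gene of CD138 that many other cells also transcribe, did not divide the sides: Xbp1 was at 42.9 to 53.4 CPM against 43.7 to 46.9 CPM. Tnfrsf17, the receptor that marks plasma cells most closely, had 3 counts over the low side and at most 0.0934 CPM on the high side. Of 10 tested members 6 had no overlap, and the list median was 0.45.

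T cell genes were close to the limit of detection. Of 22 T and NK cell genes 8 passed the filter, so they cannot stand for the list, and 3 of these had every high library above every low one. Cd3e, a chain of the T cell receptor complex, was at 0.195 to 0.399 CPM on the high side and 0.0303 to 0.153 CPM on the low side. Lck, the kinase of T cell receptor signalling, was at 0.277 to 0.996 CPM against 0.108 to 0.122 CPM. Cd8b1 had no count on the low side and at most 0.125 CPM on the high side, and Trbc1 was at 0.044 to 0.223 CPM against 0.180 to 0.333 CPM.

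Among chemokines and lymphoid cytokines, Cxcl13 showed the widest separation. It was at 3.98, 9.99, 5.63, 6.30 and 9.83 CPM in AJ_1, AJ_3, AJ_4, AJ_5 and AJ_6, against 0.245, 0.848 and 0.611 CPM in AJ_2, AJ_7 and AJ_8 (log2 fold change 3.64 ± 0.49 SE, edgeR adjusted p = 0.0886, and 0.0221 without AJ_1). Its receptor gene Cxcr5 was at 0.615 to 2.24 CPM against 0 to 0.242 CPM. Ltb, whose product lymphotoxin beta organises lymphoid tissue, was at 0.553 to 1.37 CPM against 0.212 to 0.275 CPM. Ccl21a, a chemokine of lymphatic vessels and T cell zones, went the other way and overlapped, at 6.91 to 12.6 CPM against 9.46 to 22.7 CPM. Of 10 tested members 4 had no overlap, with a median log2 fold change of 0.65. The 8 genes of lymphatic endothelium had a median of 0 and none was split.

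The MHC class II genes, which B cells share with other antigen-presenting cells, overlapped between sides in most cases. H2-Aa was at 11.7, 40.3, 31.7, 18.4 and 26.7 CPM in AJ_1, AJ_3, AJ_4, AJ_5 and AJ_6, against 10.6, 19.2 and 15.1 CPM in AJ_2, AJ_7 and AJ_8 (log2 fold change 0.78 ± 0.45 SE, edgeR adjusted p = 0.802). AJ_1 was within the range of the low side. H2-Ob, a regulator of peptide loading that is largely limited to B cells and some dendritic cells, was at 0.707 to 3.02 CPM against 0.337 to 0.454 CPM, and H2-DMb2 was at 1.03 to 2.30 CPM against 0.153 to 0.606 CPM. Of 9 tested members 9 had a positive log2 fold change, 2 had no overlap, and the median was 0.99.

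Most macrophage genes overlapped between sides, with a small set apart. Csf1r, the growth factor receptor of macrophages, was at 28.2 to 38.6 CPM on the high side and 24.6 to 32.4 CPM on the low side, and Mrc1 was at 24.1 to 37.5 CPM against 31.7 to 33.7 CPM. Of 17 macrophage genes 1 was split, the phosphatidylserine receptor gene Timd4. It was at 2.29, 7.31, 2.64, 3.38 and 4.83 CPM in AJ_1, AJ_3, AJ_4, AJ_5 and AJ_6, against 0.673, 0.969 and 0.790 CPM in AJ_2, AJ_7 and AJ_8 (log2 fold change 2.32 ± 0.44 SE, edgeR adjusted p = 0.147, and 0.0252 without AJ_3). Outside the lists, and chosen after their values were seen, 3 genes of resident macrophages followed the same division. Fcna, which encodes ficolin A, was at 4.10 to 8.91 CPM against 1.29 to 1.65 CPM (log2 fold change 2.08 ± 0.28 SE, edgeR adjusted p = 0.0673). It passed without AJ_1 (edgeR adjusted p = 0.00473), AJ_3 (0.04), AJ_4 (0.0184) or AJ_6 (0.0327). The scavenger receptor gene Marco was at 1.12 to 6.01 CPM on the high side, and the low side held 1 count in all (edgeR adjusted p = 0.108, with 0.0128 without AJ_1 and 0.0447 without AJ_3). Cd5l was at 0.110 to 4.86 CPM against 0.0606 to 0.0718 CPM, with AJ_1 hardly above the low side.

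White adipocyte genes fell into a split set and a level set. Cfd (chromosome 10, 79890853 to 79892656, plus strand) was at 15.5, 22.7, 11.2, 10.3 and 20.4 CPM in AJ_1, AJ_3, AJ_4, AJ_5 and AJ_6, against 0.949, 1.09 and 1.83 CPM in AJ_2, AJ_7 and AJ_8. Its log2 fold change was 3.65 ± 0.42 (SE; edgeR adjusted p = 0.0766, with 0.04 without AJ_3 and 0.0449 without AJ_4). Adipoq (chromosome 16, 23146536 to 23158028, plus strand) was at 7.60, 9.06, 3.84, 5.01 and 10.7 CPM, against 0.765, 1.64 and 1.80 CPM in the same order, with a log2 fold change of 2.38 ± 0.45 (SE; edgeR adjusted p = 0.189). For both genes the sides were apart, by a wider margin for Cfd.

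Other adipocyte genes with no overlap cover hormones, the lipid droplet and metabolism. Retn, which encodes resistin, was at 1.29 to 5.17 CPM against 0.0718 to 0.582 CPM, and Lep, the leptin gene, was at 0.528 to 1.73 CPM against 0.144 to 0.275 CPM. The droplet coat gene Plin1 was at 5.90 to 12.6 CPM against 1.96 to 2.76 CPM (edgeR adjusted p = 0.123, and 0.04 without AJ_3), and Cidec, which fuses droplets, was at 4.02 to 9.60 CPM against 1.26 to 1.94 CPM. Car3, a carbonic anhydrase abundant in fat and slow muscle, was at 32.3 to 78.2 CPM against 6.76 to 12.9 CPM, and Pck1, which supplies glycerol for triglyceride in fat, was at 14.3 to 24.7 CPM against 2.91 to 7.51 CPM. The level set holds genes that heart muscle or endothelium also transcribes: Lpl (3250 to 3610 CPM against 3580 to 3760 CPM), Fabp4 (271 to 345 CPM against 276 to 352 CPM), Pnpla2, Plin4 and Dgat2. Pparg, the regulator of adipocyte identity, was level too, at 7.29 to 9.73 CPM against 7.26 to 9.28 CPM. Of 30 members, all tested, 16 had no overlap, 25 had a positive log2 fold change, 1 passed the test (Adrb3), and the median was 1.04. DESeq2's test called 13 of the 30 higher, beside 125 of 15278 over all genes.

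The same list holds Scd1, Fasn and Acaca, enzymes of fatty acid synthesis, whose sides did not overlap and none of which passed edgeR's test. Scd1, the stearoyl-CoA desaturase gene, was at 521, 856, 323, 254 and 299 CPM in AJ_1, AJ_3, AJ_4, AJ_5 and AJ_6, against 112, 88.2 and 67.2 CPM in AJ_2, AJ_7 and AJ_8 (log2 fold change 2.34 ± 0.52 SE, edgeR adjusted p = 0.324). Fasn, fatty acid synthase, was at 221, 432, 108, 139 and 86.8 CPM, against 65.1, 58.8 and 49.6 CPM in the same order (log2 fold change 1.77 ± 0.62 SE, edgeR adjusted p = 0.633). AJ_3 and AJ_1 were highest for both, and AJ_6, which led for Adipoq and Car3, was the lowest high library for Fasn. Acaca, which makes malonyl-CoA, was at 28.9 to 115 CPM against at most 25.1 CPM. The sides overlapped for Elovl6, a fatty acid elongase in the brown adipocyte list, at 3.07 to 26.2 CPM against 2.59 to 3.18 CPM (log2 fold change 1.72 ± 0.91 SE, edgeR adjusted p = 0.775). Brown adipocyte genes did not follow: Ucp1, the uncoupling protein, was at 13.3, 15.5, 0.369, 14.3 and 4.83 CPM on the high side and at 0, 7.54 and 6.25 CPM on the low side, and of 11 tested members 0 lay all above and 1, Pank1, lay all below.

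**Figure D2:**
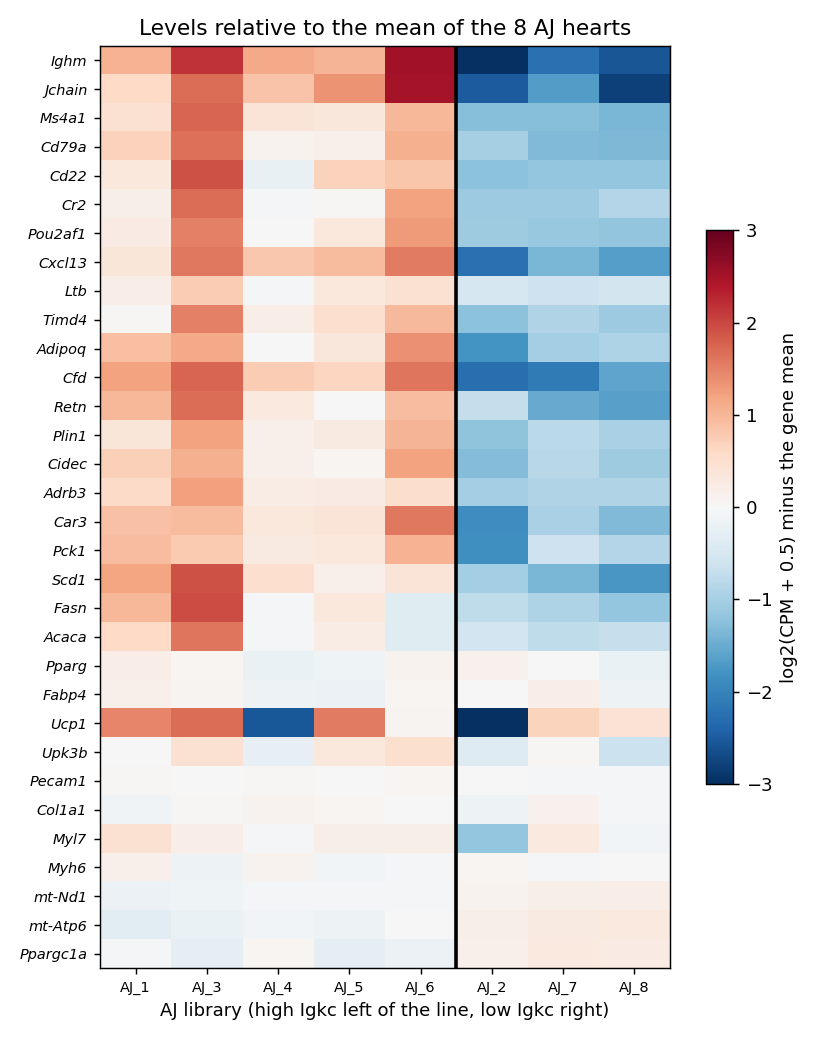
Level of 32 genes in each AJ library as log2(CPM + 0.5) minus the mean of the gene over the 8 libraries, red above and blue below, with the high Igkc side left of the black line. Lymphoid genes and the split adipocyte genes are blue in AJ_2, AJ_7 and AJ_8, while Pparg, Fabp4, Pecam1, Col1a1 and Myh6 are pale in every library and Ucp1 follows neither side.

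Mesothelial genes, markers of the sheet that covers the heart and lines its sac, were slightly higher with overlap. Upk3b was at 29.0, 40.0, 24.3, 36.6 and 41.0 CPM in AJ_1, AJ_3, AJ_4, AJ_5 and AJ_6, against 22.3, 29.8 and 18.4 CPM in AJ_2, AJ_7 and AJ_8 (log2 fold change 0.54 ± 0.23 SE, edgeR adjusted p = 0.709). All 16 members had a positive log2 fold change, 1 was split (Slpi, at 0.352 to 2.43 CPM against 0.0359 to 0.151 CPM, edgeR adjusted p = 0.145, and 0.041 without AJ_1), and the median was 0.52. The 19 tested interferon response genes were likewise all positive, with a median of 0.41 and 1 split, where 7671 of all 15278 genes were positive. The summed list was high in AJ_3 and AJ_4 only, at 230 and 225 CPM. It was at 115, 135 and 139 CPM in AJ_1, AJ_5 and AJ_6, against 140, 114 and 120 CPM in AJ_2, AJ_7 and AJ_8. Endothelial genes (median 0.03 over 16), smooth muscle and pericyte genes (0.01 over 12) and fibroblast and collagen genes (0.02 over 18) had medians near 0. Of the 16 endothelial genes 1 lay all below, and DESeq2's test called 1 lower, Cd36 (log2 fold change -0.18). Col1a1, a fibrillar collagen gene, was at 126 to 146 CPM against 122 to 147 CPM, and Pecam1, an endothelial adhesion gene, was at 140 to 147 CPM against 136 to 143 CPM.

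Ventricular muscle genes had a median log2 fold change of -0.03 over 13. Of these 13 genes 1 lay all below, and DESeq2's test called 1 lower, Pln (log2 fold change -0.19). Atrial genes had a median of 0.34 over 10. AJ_2 was the lowest library in the summed atrial genes and AJ_8 the next lowest: the sums were 1910 to 2220 CPM on the high side, against 927 CPM in AJ_2, 1980 CPM in AJ_7 and 1580 CPM in AJ_8. Among them was Nppa, the atrial natriuretic peptide gene, at 1250, 1170, 1050, 1050 and 1100 CPM in AJ_1, AJ_3, AJ_4, AJ_5 and AJ_6, against 494, 1030 and 863 CPM in AJ_2, AJ_7 and AJ_8. Among genes lying all below with a mean of at least 1 CPM, the largest fold change was that of Hspa1a, an inducible heat shock gene with a near-identical neighbour, Hspa1b, which makes its count uncertain. It was at 9.44, 8.19, 17.8, 17.5 and 40.6 CPM, against 44.2, 64.1 and 44.4 CPM in the same order (log2 fold change -1.45 ± 0.54 SE, edgeR adjusted p = 0.664). This gene was chosen after its values were seen.

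Genes of the mitochondrial genome lay lower on the high side, and they are the parts of the mitochondrial share given above. All 13 had a negative log2 fold change, 11 had no overlap, and the median was -0.25. DESeq2's test called 8 of the 13 lower, beside 22 of 15278 over all genes, and edgeR's test called none. mt-Atp6, a subunit of ATP synthase, was at 7650, 8360, 9110, 8630 and 9670 CPM in AJ_1, AJ_3, AJ_4, AJ_5 and AJ_6, against 10900, 11500 and 11800 CPM in AJ_2, AJ_7 and AJ_8 (log2 fold change -0.39 ± 0.07 SE, edgeR adjusted p = 0.0766, with 0.0387 without AJ_1 and 0.0424 without AJ_4). mt-Nd1, a subunit of complex I, was at 15600 to 17100 CPM against 18800 to 20200 CPM. mt-Co2 and mt-Nd3 overlapped. The overlap of mt-Atp8 with mt-Atp6 and nuclear copies of mitochondrial genes make single members uncertain. Ppargc1a, a nuclear regulator of mitochondrial genes, was at 129 to 163 CPM against 176 to 192 CPM (log2 fold change -0.37 ± 0.07 SE, edgeR adjusted p = 0.108, and 0.0268 without AJ_4). Fatty acid oxidation genes were slightly lower, with a median of -0.09 over 17. Of these 17, 16 had a negative log2 fold change, where 7607 of all 15278 genes did. In 3 of them every high library lay below every low one, beside 2.44% of all genes. Neither edgeR's nor DESeq2's test called any of the 17.

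**Figure D3:**
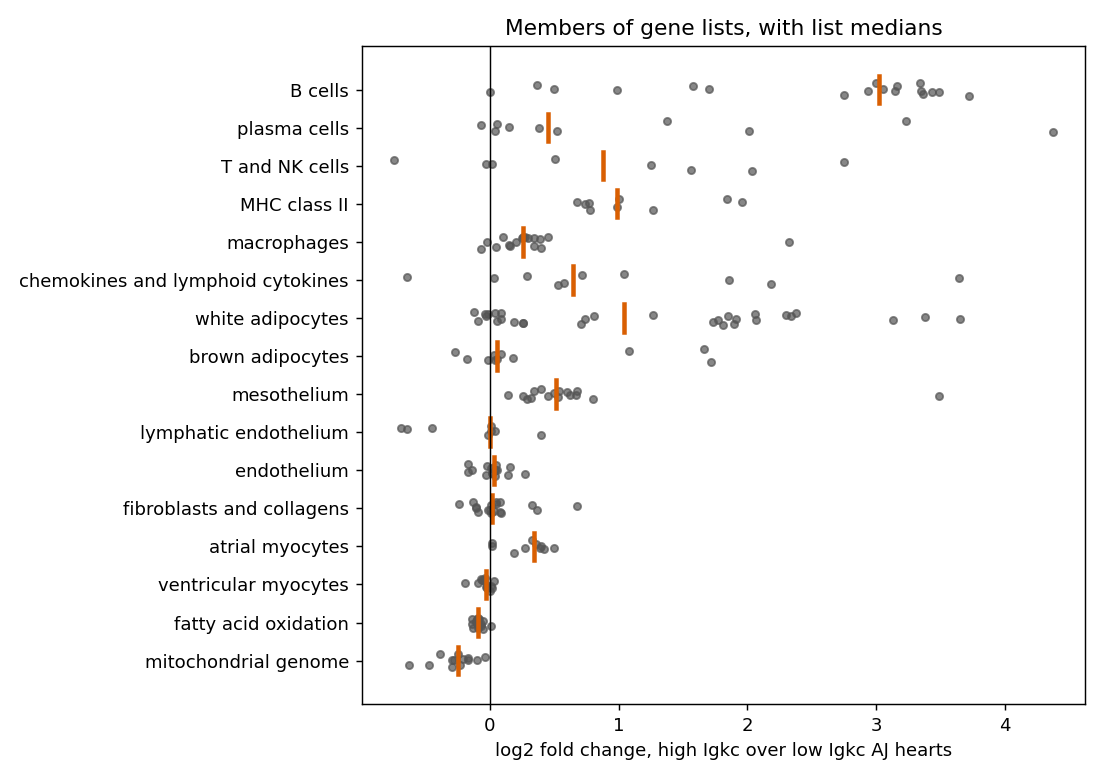
Log2 fold change, high over low Igkc AJ hearts, of the tested members of 16 gene lists with more than 3 counts on the low side (points, spread vertically for sight) and the median of each list (orange bar). B cell genes reach a median of 3.02 and white adipocyte genes fall into members near 0 and members around 2. The medians of endothelium, fibroblasts and ventricular myocytes lie near 0, and all 13 mitochondrial genes lie below 0.

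The other 7 strains, whose libraries the split did not use, show how the same genes went with Igkc. Igkc reached 10 CPM in 4 of 8 NOD libraries and 1 of 8 PWK libraries, and in 0 libraries of 129, B6, Cast, NZO and WSB. Its median was 19.1 CPM in AJ, 7.45 in NOD, 4.23 in PWK and at most 1.27 in any other strain, with a highest value of 7.57 CPM in B6.

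**Figure D4:**
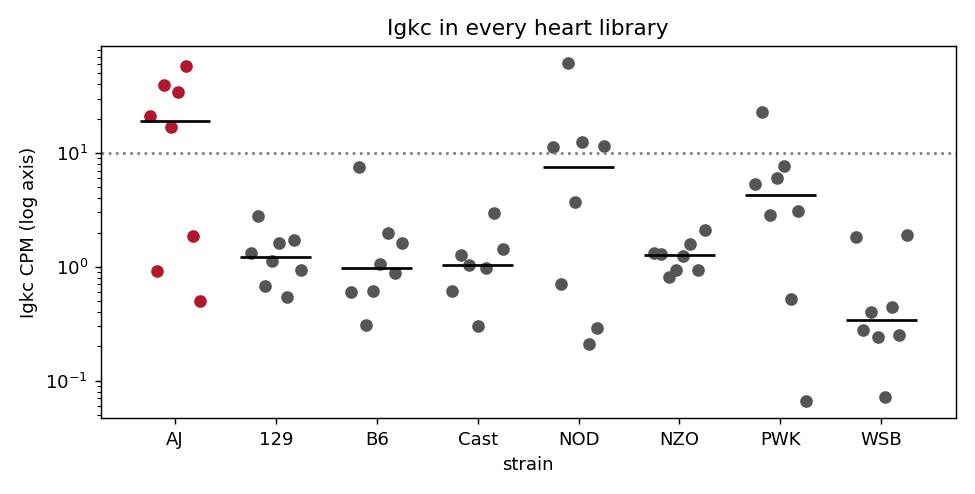
Igkc CPM on a log axis in every heart library, by strain, with the strain median as a line and the 10 CPM limit dotted. AJ, in red, has 5 libraries above the limit and 3 below 2 CPM, and NOD is the other strain with several libraries on both sides.

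In the 55 hearts outside AJ, the slope of each gene on log2(Igkc CPM + 0.5) was fitted with strain as a factor. Of 16324 genes tested, 349 had a positive slope at an edgeR adjusted p of 0.05 (2.14%) and 15 a negative one (0.0919%). Of the 487 tested genes with every high AJ library above every low one, 118 had a positive slope call (24.2% of them, and 35% of the 337 positively called genes that AJ could test), and 0 a negative one. The same share over all 15195 genes tested in both was 2.22%. Of 372 genes lying all below in AJ, 0 were called in either direction. The positive count was 74 without NOD and 149 without NOD_3 and PWK_2, the libraries of highest Igkc outside AJ.

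Most B cell genes had positive slopes. The slope, the log2 change in a gene per doubling of Igkc + 0.5 CPM, was 0.92 for Ms4a1 (edgeR adjusted p = 1.12e-12), 0.78 for Cd79a (adjusted p = 1.12e-12) and 0.83 for Cr2 (adjusted p = 5.59e-11). Of 18 B cell genes tested, 15 were called positive, with a median slope of 0.73 beside -0.002 for all genes. The 15 include Ighd, which is also an immunoglobulin gene. The immunoglobulin slopes, such as 0.87 for Ighm, describe the same antibody transcripts as Igkc. Of 6 immunoglobulin genes tested there, 5 were among the 349 called positive. Jchain, from the plasma cell list, had a slope of 1.14. MHC class II genes were called in 8 of 9 (median 0.29), while without NOD the count was 0 of 9 and without NOD_3 and PWK_2 it was 3 of 9. Without NOD, 10 of 17 B cell genes were called. Of 12 chemokine and lymphoid cytokine genes tested, 2 were called, Ltb (0.80, edgeR adjusted p = 1.26e-06) and Cxcl13 (0.55, adjusted p = 0.0055), with a list median of 0.15, and 1 of 11 was called in each of the fits that left out NOD or PWK. T and NK cell genes were called in 3 of 13, in 0 of 11 without NOD and in 1 of 13 with log2 Adipoq in the fit. Of 17 macrophage genes 2 were called, among them Timd4, whose slope was 0.23 (edgeR adjusted p = 0.0014), with 0 of 17 called without NOD and 1 of 17 without PWK. Marco could not be tested there, being too low in most hearts.

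White adipocyte genes were called positive in 13 of 30, with a median slope of 0.20. Cfd had a slope of 0.76 (edgeR adjusted p = 0.00113), Adipoq 0.66 (adjusted p = 0.00167), Scd1 0.50 (adjusted p = 0.00463), Fasn 0.36 (adjusted p = 0.000931) and Adrb3 0.59 (adjusted p = 0.0216). Lep, with a slope of 0.48 (adjusted p = 0.227), and Pck1, with 0.52 (adjusted p = 0.0593), did not pass. With log2 Adipoq in the fit, 0 of 30 adipocyte genes were called and 15 of 18 B cell genes were. Over all genes the positive count was then 177, where it was 349 without Adipoq. Adipoq is itself on the adipocyte list, so this fit takes out what the list shares with it. It therefore cannot show whether adipocyte genes go with Igkc apart from B cell genes. Without NOD, 6 of 30 adipocyte genes were called. Mesothelial genes were called in 6 of 16 (median 0.16), among them Lrrn4 (slope 0.21, edgeR adjusted p = 0.000337), but in 0 of 16 with log2 Adipoq in the fit, 1 of 16 without PWK and 4 of 16 without NOD. None of the 13 mitochondrial genes, 16 endothelial genes or 13 ventricular muscle genes was called, and the mitochondrial median was 0.00. The AJ differences and the slopes are on different scales, and a difference between them was not tested.

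**Figure D5:**
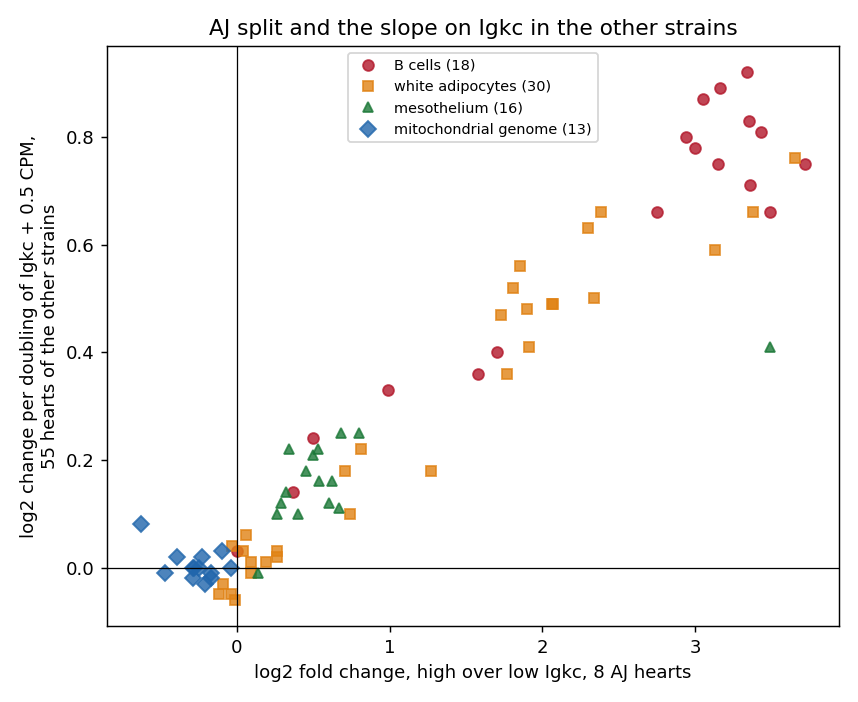
Log2 fold change between the AJ sides (horizontal) against the slope on Igkc in the 55 hearts of the other strains (vertical), for tested genes of 4 lists: 18 B cell, 30 white adipocyte, 16 mesothelial and 13 mitochondrial genes. Most B cell genes lie top right, but Ebf1, level in AJ, lies near 0 on the horizontal axis. Adipocyte genes run from near 0 into the range of the B cell genes, as Cfd does (3.65, slope 0.76). Mitochondrial genes lie left of 0 with slopes near 0. The axes come from separate libraries, and genes of a list share them.

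The NOD hearts, cut at the same 10 CPM after the data were seen, gave 4 libraries at 11.2 to 61.7 CPM of Igkc against 4 at 0.208 to 3.72 CPM. In that split edgeR called 3 genes higher and 1 lower. Ms4a1 averaged 4.72 ± 6.26 CPM against 0.255 ± 0.226 CPM (SD, n = 4 each; log2 fold change 4.18 ± 1.17 SE, edgeR adjusted p = 0.502), and Adipoq averaged 9.15 ± 5.21 CPM against 2.16 ± 1.42 CPM (2.08 ± 0.64, adjusted p = 0.533). The B cell list had a median log2 fold change of 2.82 over 17, the MHC class II list 1.37 over 9 and the white adipocyte list 0.47 over 30. Like Ms4a1, Cd79a (4.13 ± 5.86 CPM) and Pax5 (2.80 ± 3.61 CPM) had SDs above the means of the high side. Cd37 (3.28 ± 2.37 CPM) and Cd74 (43.5 ± 26.7 CPM) did not. The B cell median thus does not show that all 4 high libraries were raised. T and NK cell genes had a median of 2.96 over 8 and thymus genes 1.71 over 4. Lck averaged 9.28 ± 15.9 CPM against 0.170 ± 0.150 CPM, and Tcf7, a factor of T cells and the thymus, averaged 13.5 ± 24.3 CPM against 0.625 ± 0.498 CPM, with SDs above the means of the high side. The part of these cells in the NOD values was not tested. The NOD libraries are among the 55 of the slope and so add no separate evidence.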

How the data were processed

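Polyadenylated RNA from pulverised frozen heart was sequenced, per the labels. The authors deposited estimated counts per gene on GRCm38 and log2 variance-stabilised values that they made with DESeq2, per the submitters' processing notes; no source here names the aligner, the counter or the strand setting. The deposited annotation table gave symbols and positions. Counts not whole within 1e-06 made up 18.4% and were rounded. Floors cover counting error only, while SDs and the SE of a fold change also take in the spread between libraries.

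With R 4.3.3 and edgeR 4.0.16, filterByExpr (minimum count 10) kept 16425 of 19220 genes over 63 libraries for TMM scaling, and CPM is on that scale. AJ libraries were split at 10 CPM of Igkc, filtered again, which left 3941 genes other than Igkc out, and fitted by quasi-likelihood (robust) without a covariate. The slope in the 55 others used log2(CPM + 0.5) and strain. Library measures had exact permutation tests. Adjusted p-values are Benjamini-Hochberg over all genes tested, with 0.05 as threshold. The fits were tested on simulated data. Alternatives used DESeq2 1.42.0 and limma 3.58.1.

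Members, lists and tests were chosen with earlier results of these data known, the split of Adipoq and Cfd among them, so that split is no independent support. The rule named per direction the 15 largest log2 fold changes among called, non-overlapping genes with mean log2 CPM of at least 0 (none qualified, since Adrb3 lay under that level), up to 4 called members per list, and always Igkc, Ighm, Adipoq and Cfd. Other named genes are list members or were chosen after their values were seen. The latter were among the 15 largest non-overlapping fold changes per direction, stood out in a single library, or, for Fcna, met neither condition. RefSeq sequences were matched by symbol; 2 are shown. One member of the lists is not reported here by name.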

Additional observations from a re-analysis of the deposited data

Results flagged for a closer look

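Among 35 named genes, the 5 high libraries were checked for a library far from the others, which chance gives in about 1 of 20 such checks. AJ_3 stood apart in 2 genes. Siglecg, an inhibitory receptor gene of B cells, was at 3.58 CPM in AJ_3 with 1.34 CPM as the next highest (gap over range 0.815). Adrb3 was at 2.46 CPM in AJ_3 with 1.39 CPM as the next highest (gap over range 0.727). Without AJ_3, Adrb3 had a log2 fold change of 2.86 (edgeR adjusted p = 0.0174).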

How the results depend on the processing

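In the AJ split, the count of genes higher on the high side was 4 with no filter on low counts, 0 at a mean log2 CPM of at least 1, 125 with DESeq2's test, 0 with limma on the deposited log2 values, 6 with all 63 libraries in the fit, 89 with log2 Igkc as a slope and 6 with log2 Xist as a covariate (added after seeing the data). The count of lower genes was 1 with no filter, 22 with DESeq2's test, 4 with all 63 libraries and 1 with the slope. The 4 with all 63 libraries were Gpnmb, Mmp12, Spp1 and Ctsk. Among the AJ libraries, Gpnmb, Mmp12 and Spp1 were high in AJ_7 alone, a library of the low side. Leaving out 1 AJ library at a time gave 0 to 21 higher and 0 to 2 lower genes. It gave differences in mitochondrial share of -2.46 to -1.92 percentage points (exact permutation p of 0.0286 to 0.0952), and in total counts of 0.225 to 3.45 M. With a library left out there are fewer than 56 arrangements, so these p-values cannot go as low as 0.0179. In the 55 other hearts, the positive count of 349 was 177 with log2 Adipoq as a covariate, 74 without NOD, 189 without PWK, 149 without NOD_3 and PWK_2, and 3 in the NOD split, the last 2 settings added after seeing the data. The negative count of 15 was 2 with Adipoq, 9 without B6, 25 without Cast, 2 without NOD, 6 without PWK, 2 without NOD_3 and PWK_2, and 1 in the NOD split. With Adipoq as a covariate, the slopes of Adipoq (-0.03), Plin1 (0, from below), Cidec (-0.08) and Adrb3 (-0.05) turned negative; Adipoq is then its own covariate. The cause of the other moves was not tested. No paired analysis was possible because the sides share no replicate number.

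Depth limits the low genes: a count of 3 over the low side is 0.0321 CPM, so most T cell genes could not be compared. With 5 libraries against 3, the exact permutation test cannot go below 0.0179.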

Other observations

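Single AJ libraries carried genes that the others hardly held, counted after the values were seen as genes of at least 5 CPM and at least 5 times the next highest AJ library. On the high side AJ_1 had 5 such genes, AJ_3 1, AJ_4 3, AJ_5 1 and AJ_6 0, and on the low side AJ_7 had 5 and AJ_2 and AJ_8 had 0. The genes of AJ_1 are airway and gland genes: Cyp2f2 at 29.2 CPM, Bpifb1, Muc5b at 10.2 CPM, Scgb3a1 at 5.83 CPM and Ltf at 5.31 CPM. Those of AJ_7 are known from foam cells and osteoclast-like macrophages: Gpnmb at 80.4 CPM, Mmp12 at 47.4 CPM, Itgax at 10.6 CPM, Spp1 at 8.24 CPM and Atp6v0d2 at 5.03 CPM. In the other 7 libraries Mmp12 ran from 0.184 to 0.676 CPM and Spp1 from 0.484 to 0.866 CPM. In AJ_4 F830016B08Rik stood at 203 CPM, with 24.9 CPM as the next highest. The B cell list had a median log2 fold change of 3.07 without AJ_1 and 2.83 without AJ_7, and the white adipocyte list 0.80 and 1.02.

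Immediate early genes, which are induced fast by many stimuli, had 12 of 12 negative log2 fold changes, a median of -0.36 and overlap in all 12. Fos was at 11.4, 38.2, 27.6, 21.0 and 17.8 CPM in AJ_1, AJ_3, AJ_4, AJ_5 and AJ_6, against 48.1, 60.8 and 22.5 CPM in AJ_2, AJ_7 and AJ_8 (edgeR adjusted p = 0.766). In the 55 other hearts 0 of the 12 had a slope call.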
